A study of Homo sapiens with 4 samples.

Results

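EZH2, SETD2, ING4, SMARCB1, BPTF, EHMT2, BRD8, SMARCC2, KDM1A and DNMT1 are 10 genes for chromatin regulators with cassette exons, which can be kept in or left out of the mature RNA. Their events were the skipped-exon events whose middle exon, or whose flanking exons together, matched a GENCODE release 29 exon of these genes on the same strand. Among the 45977 events present for both groups, 51 did so, all through the skipped exon, and they covered 49 distinct exons. Of these exons, 28 were tested, meaning that each group had at least 10 reads specific to the form with or the form without the exon, out of 8228 tested exons in the series. The genes were selected on the measured differences in exon inclusion described here, so those differences are a description and carry no test. The cells were MDA-LM2, a human breast cancer line derived from MDA-MB-231 and selected for metastasis to the lung. They had received, by lipofection, an RNA called the SSE mimetic (2 samples, below SSE-mimetic cells) or a scrambled oligo (2 samples, below scrambled-oligo cells). Each group was deposited as 1 summary of total RNA sequencing, without values per sample and therefore without a spread between samples.

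Chromatin regulators write, erase or read chemical marks on histones and DNA, or move nucleosomes along DNA. EZH2 is the catalytic subunit of the Polycomb repressive complex PRC2, SETD2 methylates histones along transcribed gene bodies, and EHMT2 encodes the histone methyltransferase G9a. ING4 and BRD8 belong to histone acetyltransferase complexes, BPTF to the NURF remodelling complex, and SMARCB1 and SMARCC2 to the SWI/SNF remodelling complex. KDM1A encodes the histone demethylase LSD1, and DNMT1 copies DNA methylation after replication. An alternative exon in such a gene can add a segment to the protein, or it can bring in a stop codon or a frame shift. Transcripts with an early stop are often degraded by nonsense-mediated decay (NMD).

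The sequences of the 5 exons with called differences are shown because they tell whether the exon holds a stop codon in the incoming reading frame. They are given 5′ to 3′ on the transcribed strand, from GENCODE release 29 transcripts at hg38 positions. The EZH2 exon lies at chr7:148836822-148837000 on the minus strand and the BPTF exon at chr17:67963333-67963506 on the plus strand, and neither holds a stop codon in the reading frame carried in from the upstream exon. For SETD2 (chr3:47119452-47119780, minus strand) and ING4 (chr12:6655638-6655913, minus strand) the exon is shown from its first base through the first stop codon in that frame, in capitals. The SMARCB1 exon (chr22:23800944-23801135, plus strand) is shown whole, and its capitals mark the 54 bases by which it runs past a 138-nt form of the same exon. A lack of an in-frame stop does not make the EZH2 exon a coding one, as it is found in an NMD transcript alone.
EZH2 exon of 179 nt: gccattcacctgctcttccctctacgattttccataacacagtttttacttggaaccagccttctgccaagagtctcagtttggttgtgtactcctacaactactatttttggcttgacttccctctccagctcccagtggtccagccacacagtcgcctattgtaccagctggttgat
BPTF exon of 174 nt: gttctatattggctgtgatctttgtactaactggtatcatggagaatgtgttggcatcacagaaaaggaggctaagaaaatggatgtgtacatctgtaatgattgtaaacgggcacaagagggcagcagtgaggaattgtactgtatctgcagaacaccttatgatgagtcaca
SETD2 exon of 329 nt, start: aatgaagtatctttgggtactgtatTAG
ING4 exon of 276 nt, start: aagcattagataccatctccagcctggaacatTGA
SMARCB1 exon of 192 nt: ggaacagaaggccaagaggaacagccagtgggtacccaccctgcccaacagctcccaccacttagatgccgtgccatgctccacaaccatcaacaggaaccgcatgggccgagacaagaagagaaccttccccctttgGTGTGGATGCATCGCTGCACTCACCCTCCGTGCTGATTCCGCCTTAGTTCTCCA

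Inclusion is given as percent spliced in (Ψ), a fraction, with the 95% credible interval of the authors' run in parentheses. Inclusion reads fit the form with the exon alone, skipping reads fit the form without it alone, shared reads fit both, and other reads, such as those in flanking introns, fit neither. Inclusion and skipping reads together are called isoform-specific. Over the 49 exons they numbered 824 in SSE-mimetic cells against 3529 in scrambled-oligo cells, a ratio of 0.233, and over all 39120 exons of the series the ratio was 0.209. Reads fitting neither form numbered 14768 in SSE-mimetic cells against 28760 in scrambled-oligo cells, a ratio of 0.513, so depth and the mixture of read kinds both differed between the groups. Among markers of the line, CD44 reached 164 isoform-specific reads at 1 exon in SSE-mimetic cells and 995 in scrambled-oligo cells. The epithelial gene CDH1 reached 5 in SSE-mimetic cells and 8 in scrambled-oligo cells, and VIM had no event. The leukocyte gene PTPRC reached 10 in SSE-mimetic cells and 14 in scrambled-oligo cells, so counts this low cannot tell kinds of cell apart. These counts are not corrected for the difference in depth between the groups. In bulk RNA, fewer cells of a kind and less RNA per cell also cannot be told apart.

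A difference was called where the Bayes factor deposited by the authors reached 10 and Ψ changed by 0.1 or more. Of the 28 tested exons, 4 were called higher in SSE-mimetic cells, in EZH2, SETD2, ING4 and BPTF, against 3.10% of all tested exons. In SMARCB1, 1 exon was called lower, against 0.887% of all tested exons, which makes 5 of 28 in either direction, against 3.99%. Fisher's exact test on the reads in place of the Bayes factor called 3 of the 28 higher, without ING4, against 0.814% of all tested exons. The genes were picked from this contrast, so nothing is read from these shares. The other 23 tested exons differed by between -0.27 and 0.23. At 10 of the 28 tested exons, against 54.8% of all tested exons, neither group had a skipping read. Ψ at such exons rests on inclusion and shared reads. In the authors' deposited table the lowest Bayes factor of a called exon here was 44.21, in ING4, and the highest of an uncalled one was 1.46, in SMARCC2.

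**Figure D1:**
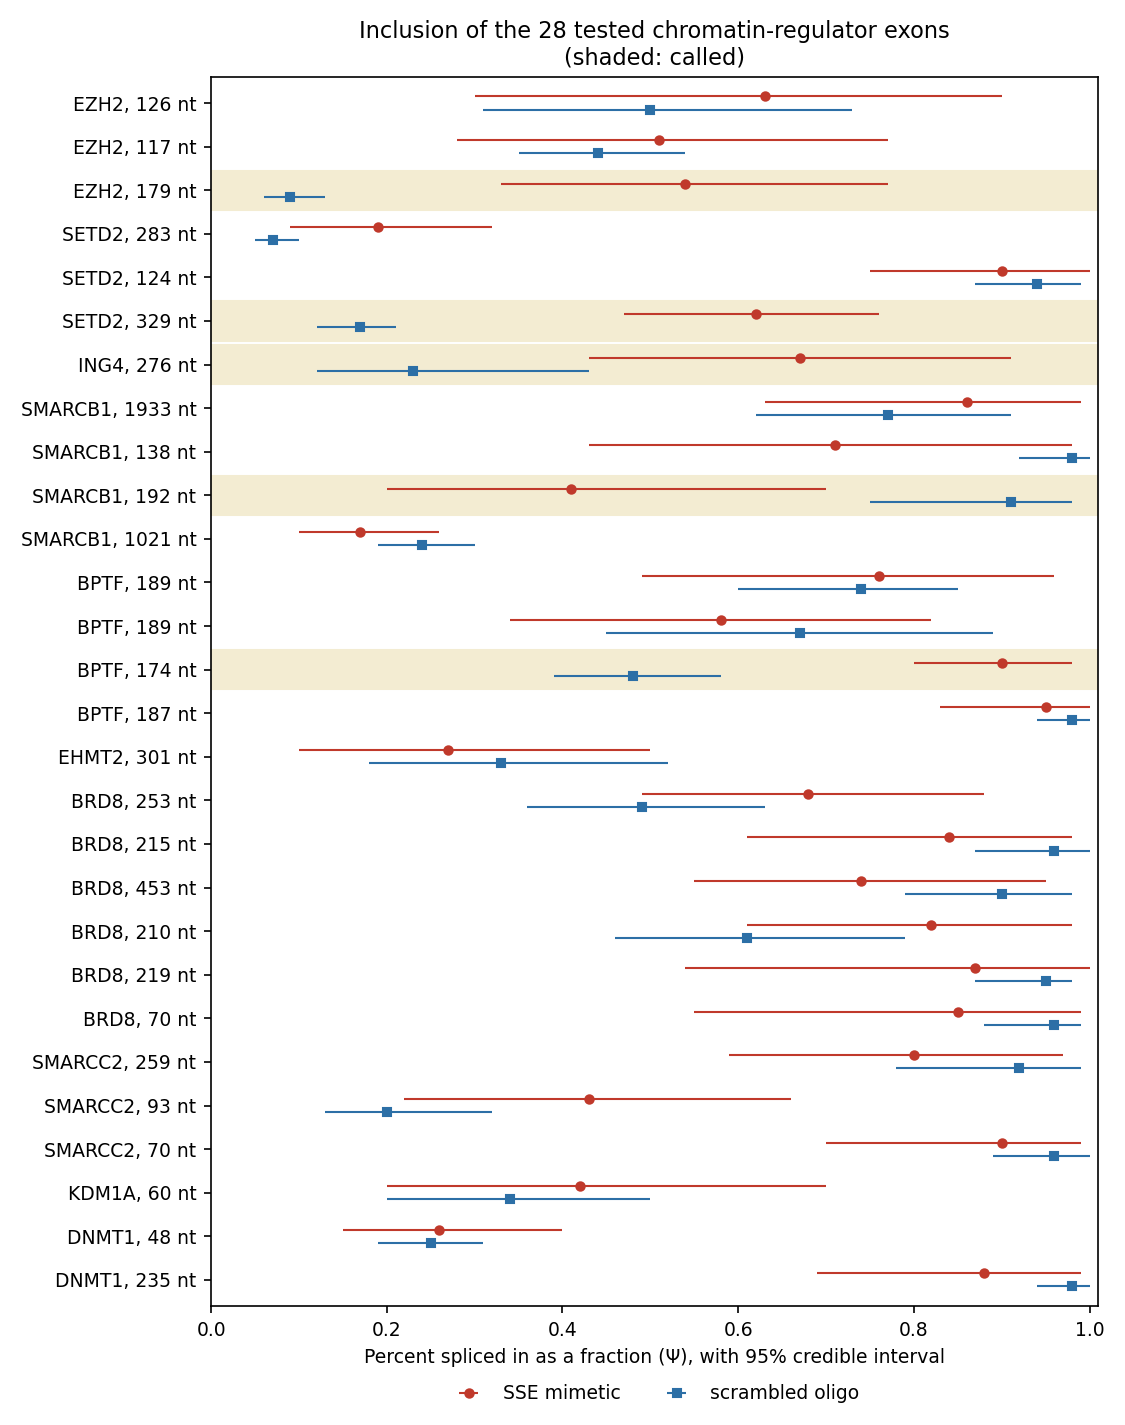
Inclusion (Ψ, x axis) of the 28 tested exons, listed by gene and exon length, with SSE-mimetic cells as circles above scrambled-oligo cells as squares and bars for the 95% credible intervals. The 5 shaded exons are the called ones, and the median bar width was 0.395 in SSE-mimetic cells and 0.19 in scrambled-oligo cells.

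In the histone methyltransferase genes EZH2 and SETD2, 1 exon each had a higher Ψ in SSE-mimetic cells than in scrambled-oligo cells. Both Ψ values lay above 0.5 in SSE-mimetic cells, but their credible intervals reached below 0.5. The EZH2 exon of 179 nt was at 0.54 (0.33 to 0.77) in SSE-mimetic cells and 0.09 (0.06 to 0.13) in scrambled-oligo cells. Behind these values stood 18 inclusion and 5 skipping reads in SSE-mimetic cells, against 21 inclusion and 53 skipping reads in scrambled-oligo cells. The inclusion share of these reads was 0.783 in SSE-mimetic cells (95% Clopper-Pearson interval 0.563 to 0.925) and 0.284 in scrambled-oligo cells (0.185 to 0.401). Neither pair of intervals met. The authors' deposited table gives a difference of 0.45 and a Bayes factor of 3893. GENCODE has this exon in 1 of 10 EZH2 transcripts, as exon 4 of an NMD transcript, and its length is not a multiple of 3.

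The other EZH2 exons were not called. Coding exon 4 (117 nt) was at 0.51 (0.28 to 0.77) in SSE-mimetic cells and 0.44 (0.35 to 0.54) in scrambled-oligo cells. Coding exon 14 (126 nt) was at 0.63 (0.30 to 0.90) in SSE-mimetic cells and 0.50 (0.31 to 0.73) in scrambled-oligo cells. It had 11 inclusion reads in SSE-mimetic cells and 21 in scrambled-oligo cells, and 0 skipping reads in either group. Its Ψ therefore rests on inclusion and shared reads, and no read showed skipping. Another NMD exon, of 82 nt, lies at chr7:148818978-148819059 on the minus strand, and its first in-frame stop, in capitals, ends the annotated reading frame of an NMD transcript.
EZH2 exon of 82 nt, start: ccactcctacctaggaacTAA
This exon had 2 inclusion and 3 skipping reads in SSE-mimetic cells, too few to be tested, against 6 inclusion and 95 skipping reads in scrambled-oligo cells. Its Ψ was 0.23 (0.06 to 0.55) in SSE-mimetic cells and 0.04 (0.02 to 0.08) in scrambled-oligo cells.

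The SETD2 exon of 329 nt was at 0.62 (0.47 to 0.76) in SSE-mimetic cells and 0.17 (0.12 to 0.21) in scrambled-oligo cells. It had 39 inclusion and 7 skipping reads in SSE-mimetic cells, against 46 inclusion and 42 skipping reads in scrambled-oligo cells. The inclusion share was 0.848 in SSE-mimetic cells (0.711 to 0.937) and 0.523 in scrambled-oligo cells (0.414 to 0.630), and these intervals too did not meet. The difference was 0.45 in the authors' deposited table, with the Bayes factor at its cap of 1e12. Shared reads, which also enter Ψ, numbered 598 in SSE-mimetic cells and 3110 in scrambled-oligo cells. The exon is number 2 of 19 in an NMD transcript whose annotated reading frame ends at the stop codon shown, at base 26 of the exon.

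Further SETD2 exons and those of EHMT2 were not called. The SETD2 exon of 283 nt, from a noncoding transcript, was at 0.19 (0.09 to 0.32) in SSE-mimetic cells and 0.07 (0.05 to 0.10) in scrambled-oligo cells. Of its 10 inclusion reads in SSE-mimetic cells 9.75 would be expected from the density of reads in its flanking introns, and of its 23 in scrambled-oligo cells 15.33. With these subtracted, a 2-isoform model put Ψ at 0.026 in SSE-mimetic cells and 0.028 in scrambled-oligo cells. Almost no inclusion reads were left in SSE-mimetic cells, so these values do not tell whether inclusion differed. The SETD2 coding exon 6 (124 nt) was nearly always kept, at 0.90 (0.75 to 1.0) in SSE-mimetic cells and 0.94 (0.87 to 0.99) in scrambled-oligo cells. The EHMT2 exon of 301 nt, from a noncoding transcript, was at 0.27 (0.10 to 0.50) in SSE-mimetic cells and 0.33 (0.18 to 0.52) in scrambled-oligo cells. Reads expected from introns, 12.07 in SSE-mimetic cells and 19.41 in scrambled-oligo cells, exceeded its inclusion reads in both groups, 5 in SSE-mimetic cells and 16 in scrambled-oligo cells. The EHMT2 coding exon 10 (102 nt), a known alternative exon of G9a, was not tested, with 4 inclusion reads and 0 skipping reads in SSE-mimetic cells against 11 inclusion reads and 1 skipping read in scrambled-oligo cells.

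Among the readers of histone marks, BPTF carries a PHD finger that binds methylated histone tails and a bromodomain that binds acetylated ones. Its exon of 174 nt was at 0.90 (0.80 to 0.98) in SSE-mimetic cells and 0.48 (0.39 to 0.58) in scrambled-oligo cells. Inclusion reads numbered 42 in SSE-mimetic cells and 74 in scrambled-oligo cells, and skipping reads 1 in SSE-mimetic cells and 43 in scrambled-oligo cells. The inclusion share was 0.977 in SSE-mimetic cells (0.877 to 0.999) and 0.632 in scrambled-oligo cells (0.538 to 0.720). The groups' intervals were apart on both measures, and the authors' deposited table gives a difference of 0.42 and a Bayes factor of 3.27e+07. This is coding exon 27 of 31, its length is a multiple of 3, and it was the 1 exon called higher here that lies in a protein-coding transcript.

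The other tested BPTF exons differed less. Coding exon 5 (189 nt) was at 0.76 (0.49 to 0.96) in SSE-mimetic cells and 0.74 (0.60 to 0.85) in scrambled-oligo cells. Coding exon 6, also of 189 nt, was at 0.58 (0.34 to 0.82) in SSE-mimetic cells and 0.67 (0.45 to 0.89) in scrambled-oligo cells. Another event of exon 6, with a different upstream neighbour, gave 0.56 (0.28 to 0.85) in SSE-mimetic cells and 0.41 (0.29 to 0.54) in scrambled-oligo cells, so the sign depended on the event. Coding exon 30 (187 nt) was at 0.95 (0.83 to 1.0) in SSE-mimetic cells and 0.98 (0.94 to 1.0) in scrambled-oligo cells.

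ING4, a PHD finger protein that binds methylated histone tails, had 1 tested exon among 6. This exon of 276 nt was at 0.67 (0.43 to 0.91) in SSE-mimetic cells and 0.23 (0.12 to 0.43) in scrambled-oligo cells, so the intervals met at 0.43. It had 16 inclusion and 2 skipping reads in SSE-mimetic cells, against 11 inclusion and 7 skipping reads in scrambled-oligo cells. The inclusion share was 0.889 in SSE-mimetic cells (0.653 to 0.986) and 0.611 in scrambled-oligo cells (0.357 to 0.827), and these intervals overlapped. The authors' deposited table gives a difference of 0.44. The exon is found in 2 NMD transcripts, and the stop codon shown, at base 33, ends the annotated reading frame of both.

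BRD8, a bromodomain subunit of the NuA4/TIP60 acetyltransferase complex, had 12 exons, of which 6 were tested and 0 called. The NMD exon of 253 nt was at 0.68 (0.49 to 0.88) in SSE-mimetic cells and 0.49 (0.36 to 0.63) in scrambled-oligo cells. Coding exon 10 (210 nt) was at 0.82 (0.61 to 0.98) in SSE-mimetic cells and 0.61 (0.46 to 0.79) in scrambled-oligo cells. Coding exon 12 (453 nt) had the opposite sign, at 0.74 (0.55 to 0.95) in SSE-mimetic cells and 0.90 (0.79 to 0.98) in scrambled-oligo cells. The intervals overlapped in each case. Coding exon 12 had 83 inclusion reads in SSE-mimetic cells and 309 in scrambled-oligo cells, and 0 skipping reads in either group. Its inclusion share was therefore 1.0 in both groups, without a difference. Coding exon 20 (45 nt) was not tested, with 3 inclusion and 4 skipping reads in SSE-mimetic cells against 9 inclusion and 63 skipping reads in scrambled-oligo cells.

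SMARCB1, a core SWI/SNF subunit, held the exon called lower. The events list 4 forms of that exon that start at the same base and end at different ones, with lengths of 27, 138, 192 and 1021 nt. The 192-nt form, exon 4 of 9 in a protein-coding transcript, was at 0.41 (0.20 to 0.70) in SSE-mimetic cells and 0.91 (0.75 to 0.98) in scrambled-oligo cells. The authors' deposited table gives a difference of -0.50 and a Bayes factor of 178.34. The 138-nt form, exon 4 of 9 in another protein-coding transcript, was at 0.71 (0.43 to 0.98) in SSE-mimetic cells and 0.98 (0.92 to 1.0) in scrambled-oligo cells, and was not called. The 1021-nt form, from NMD transcripts, was at 0.17 (0.10 to 0.26) in SSE-mimetic cells and 0.24 (0.19 to 0.30) in scrambled-oligo cells, and was not called either.

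The SMARCB1 values rest on inclusion and shared reads, since none of the 4 forms had a skipping read in either group. The 192-nt form had 14 inclusion reads in SSE-mimetic cells and 144 in scrambled-oligo cells, and the 138-nt form had 19 in SSE-mimetic cells and 153 in scrambled-oligo cells. All 4 forms had 36 shared reads in SSE-mimetic cells and 127 in scrambled-oligo cells. The inclusion share of the 192-nt form was therefore 1.0 in SSE-mimetic cells (0.768 to 1.0) and 1.0 in scrambled-oligo cells (0.975 to 1.0), without a difference. Because the forms overlap, a read inside the common bases can count for several of them. The 192-nt form had fewer inclusion reads than the shorter 138-nt form in both groups. Its lower Ψ in SSE-mimetic cells therefore cannot be assigned to the bases that this form adds. The 27-nt form had 0 inclusion reads in SSE-mimetic cells and 22 in scrambled-oligo cells and was not tested, although the authors' deposited table gives it a Bayes factor of 7766. A 1933-nt exon of a SMARCB1 retained-intron transcript was at 0.86 (0.63 to 0.99) in SSE-mimetic cells and 0.77 (0.62 to 0.91) in scrambled-oligo cells. It had 86 inclusion reads in SSE-mimetic cells and 424 in scrambled-oligo cells, and 0 skipping reads in either group. Of these inclusion reads, 45.07 in SSE-mimetic cells and 105.17 in scrambled-oligo cells would be expected from flanking introns. The exon contains the upstream flanking exon of the 4 forms, whose reads can also count as inclusion. Its Ψ thus does not measure the retained-intron form alone.

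**Figure D2:**
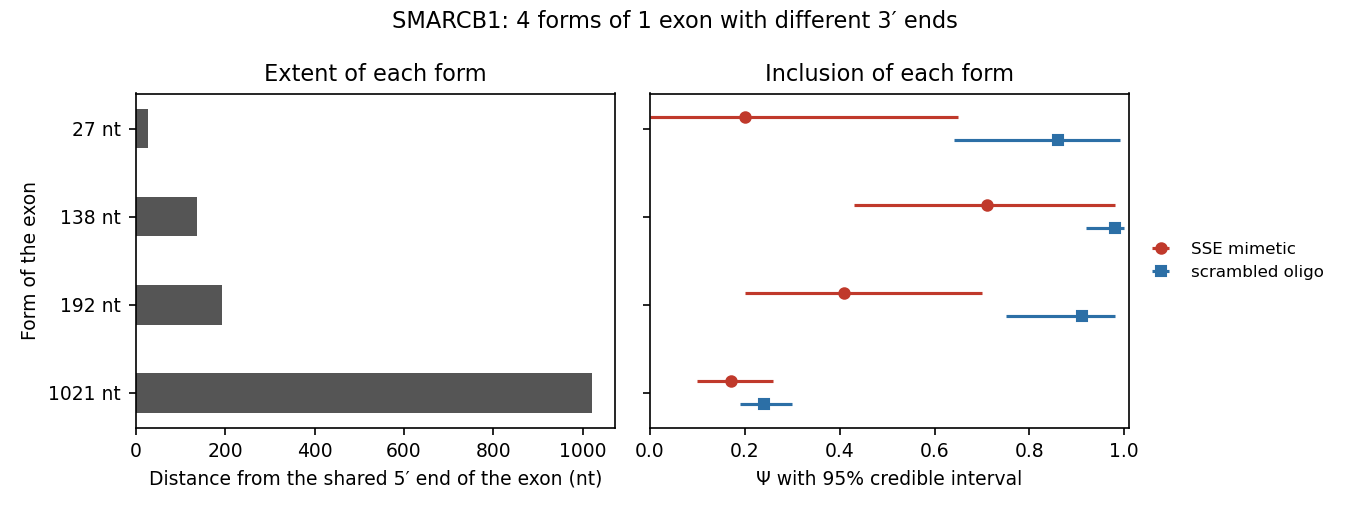
The 4 forms of the SMARCB1 exon drawn to scale from their common first base (left, nt) and the Ψ of each with its 95% credible interval (right), SSE-mimetic cells as circles above scrambled-oligo cells as squares. The 192-nt form, at 0.41 in SSE-mimetic cells and 0.91 in scrambled-oligo cells, is the called one, and the 27-nt form was not tested.

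SMARCC2, which encodes the SWI/SNF scaffold subunit BAF170, had 3 tested exons and 0 calls. Its coding exon 18 of 29, of 93 nt, lies at chr12:56172937-56173029 on the minus strand, and is shown as the uncalled exon with the highest Bayes factor.
SMARCC2 exon of 93 nt: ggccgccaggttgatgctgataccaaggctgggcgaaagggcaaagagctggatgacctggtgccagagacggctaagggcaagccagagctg
Its length is a multiple of 3 and it has no in-frame stop. Its Ψ was 0.43 (0.22 to 0.66) in SSE-mimetic cells and 0.20 (0.13 to 0.32) in scrambled-oligo cells. It had 11 inclusion and 7 skipping reads in SSE-mimetic cells, against 14 inclusion and 22 skipping reads in scrambled-oligo cells. Coding exon 20 (259 nt) was at 0.80 (0.59 to 0.97) in SSE-mimetic cells and 0.92 (0.78 to 0.99) in scrambled-oligo cells.

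KDM1A and DNMT1 hold short in-frame exons known to define protein isoforms, and 0 of their 3 tested exons were called. The KDM1A exons are shown because skipping reads covered them in both groups.
KDM1A exon of 60 nt: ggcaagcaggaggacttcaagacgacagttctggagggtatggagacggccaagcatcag
KDM1A exon of 12 nt: gacactgtcaag
The DNMT1 coding exon of 48 nt was at 0.26 (0.15 to 0.40) in SSE-mimetic cells and 0.25 (0.19 to 0.31) in scrambled-oligo cells. It had 15 inclusion and 21 skipping reads in SSE-mimetic cells, against 68 inclusion and 105 skipping reads in scrambled-oligo cells, the most skipping reads of the 49 exons in both groups. Its inclusion share was 0.417 in SSE-mimetic cells (0.255 to 0.592) and 0.393 in scrambled-oligo cells (0.320 to 0.470). A DNMT1 exon of 235 nt, exon 3 of 8 in a protein-coding transcript, was at 0.88 (0.69 to 0.99) in SSE-mimetic cells and 0.98 (0.94 to 1.0) in scrambled-oligo cells. This exon had 22 inclusion reads in SSE-mimetic cells and 147 in scrambled-oligo cells, and 0 skipping reads in either group. Its shared reads numbered 2 in SSE-mimetic cells and 0 in scrambled-oligo cells, so its Ψ rests almost wholly on inclusion reads, and no read showed skipping.

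The KDM1A exon of 60 nt (chr1:23044427-23044486, plus strand) was at 0.42 (0.20 to 0.70) in SSE-mimetic cells and 0.34 (0.20 to 0.50) in scrambled-oligo cells. It had 6 inclusion and 4 skipping reads in SSE-mimetic cells, against 14 inclusion and 14 skipping reads in scrambled-oligo cells. The 12-nt microexon (chr1:23066060-23066071, plus strand), known as an exon of neurons, had 0 inclusion reads of 6 isoform-specific reads in SSE-mimetic cells, which allows a share of up to 50.0% if 3 counts are taken as the limit. In scrambled-oligo cells it had 0 of 42, which allows a share of up to 7.14% by the same limit. The upper Clopper-Pearson bound of the share was 0.459 in SSE-mimetic cells and 0.084 in scrambled-oligo cells. These limits and the Clopper-Pearson intervals cover counting error alone.

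Across the 28 tested exons the median difference in Ψ was -0.01, with 14 above 0 and 14 below, and over all 8228 tested exons it was -0.03. By annotation, 20 of the 28 lie in the coding sequence of a protein-coding transcript and 8 in no protein-coding transcript. The 20 coding exons had a median Ψ of 0.78 in SSE-mimetic cells and 0.905 in scrambled-oligo cells, and 1 was called higher and 1 lower, against 1.25% and 1.12% of the 5442 tested coding exons of the series. Their median difference was -0.05, as it was over those 5442. The 8 exons in no protein-coding transcript had a median Ψ of 0.58 in SSE-mimetic cells and 0.235 in scrambled-oligo cells, and 3 were called higher and 0 lower, against 6.65% and 0.358% of 1956 such exons of the series. Their median difference was 0.155, and 0.02 over those 1956. The 5 of them that were not called differed by between -0.07 and 0.19. The genes were picked on these differences, so nothing is read from these contrasts with the series.

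**Figure D3:**
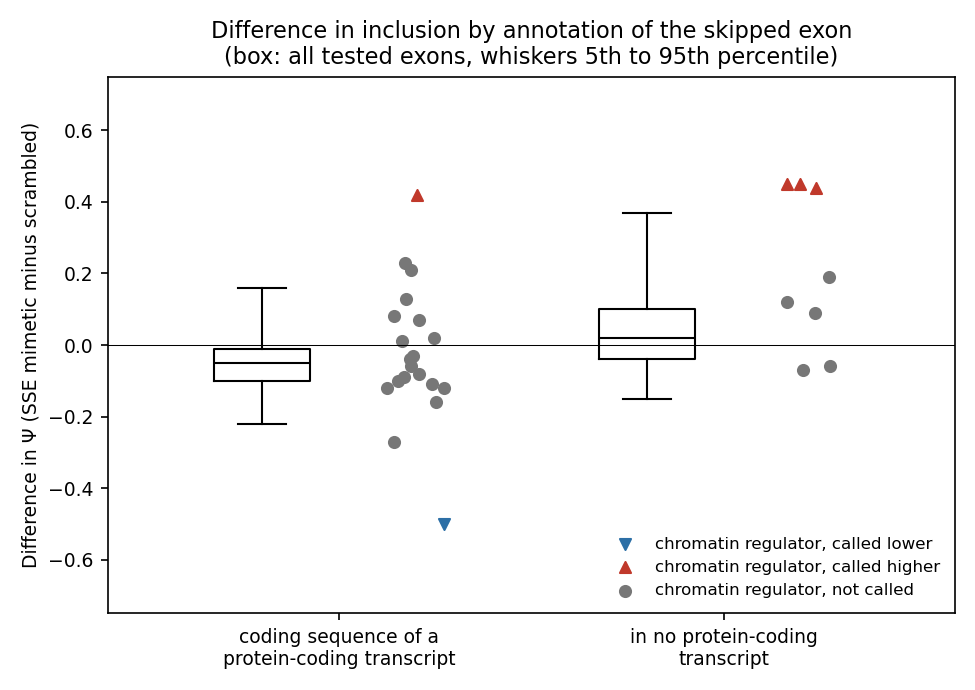
Difference in Ψ (SSE mimetic minus scrambled, y axis) for coding exons and for exons in no protein-coding transcript, with boxes for all tested exons of each kind (median, quartiles, and whiskers over the central part of the values) and points for the 20 and 8 exons of the chromatin regulators. The upward triangles among exons in no protein-coding transcript are EZH2 and SETD2, both at 0.45, and ING4 at 0.44, and the coding exon called higher is BPTF at 0.42.

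In length and composition, the 28 tested exons had a median of 190.5 nt and 51.4% GC, against 157 nt over all tested exons and 47.5% GC over the 7929 of them with a sequence. Of the 28, 14 had a length divisible by 3, against 41.3% of all tested exons. A stop codon in the incoming frame was found in 7 and not in 20, and the frame of 1 was not determined. The 4 exons called higher had a median GC content of 44.0%, and the SMARCB1 exon called lower had 57.8%.

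The numbers of reads behind the calls, as ratios of SSE-mimetic over scrambled-oligo cells, differed by kind. At the EZH2 exon the ratio was 0.857 for inclusion reads and 0.0943 for skipping reads. At the SETD2 exon it was 0.848 for inclusion and 0.167 for skipping. At the ING4 exon it was 1.45 for inclusion and 0.286 for skipping, and at the BPTF exon 0.568 for inclusion and 0.0233 for skipping. Over all tested exons it was 0.215 for inclusion reads, 0.15 for skipping reads and 0.529 for reads fitting neither form. At the SMARCB1 exon of 192 nt it was 0.0972 for inclusion reads and 0.283 for shared reads.

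**Figure D4:**
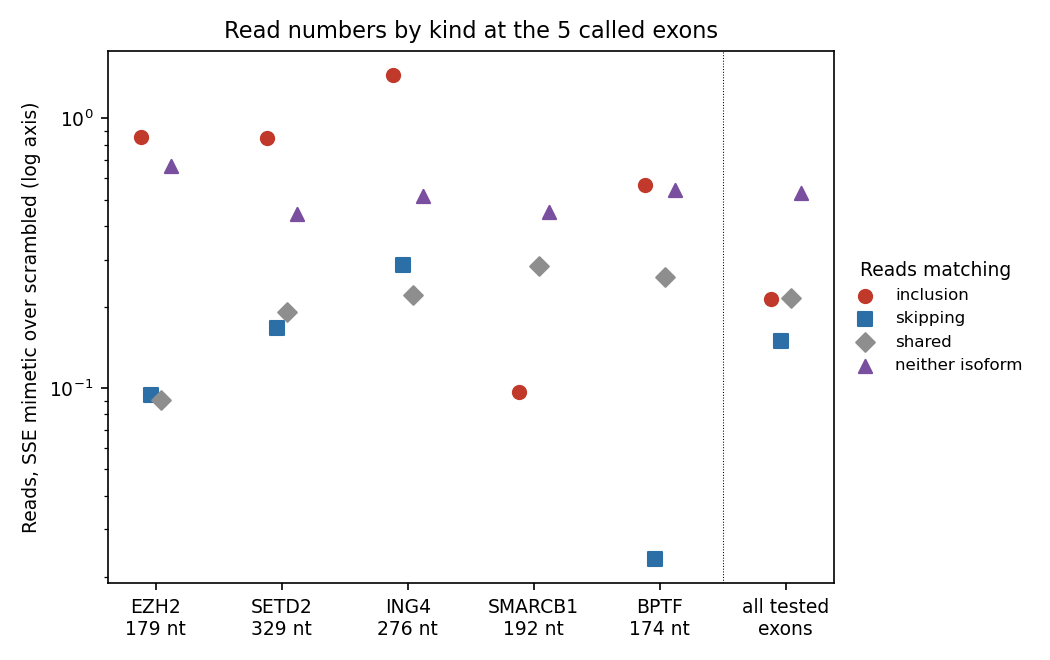
Ratio of read numbers, SSE-mimetic over scrambled-oligo cells (y axis, log scale), for inclusion, skipping and shared reads and reads fitting neither form, at the 5 called exons and over all tested exons. The inclusion ratios of the 4 exons called higher, 0.568 to 1.45, lie above the 0.215 of all tested exons. The calls were made on these same reads, so this is a description. The SMARCB1 exon has no skipping point because it had no skipping read.

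Reads of unspliced RNA inside an exon count as inclusion reads, and reads fitting neither form were relatively more frequent in SSE-mimetic cells. Taking the density of such reads over the flanking introns, 5.48 of 18 inclusion reads would be expected from unspliced RNA at the EZH2 exon in SSE-mimetic cells, and 8.2 of 21 in scrambled-oligo cells. At the SETD2 exon these were 11.4 of 39 in SSE-mimetic cells and 25.74 of 46 in scrambled-oligo cells. At the BPTF exon they were 4.88 of 42 in SSE-mimetic cells and 8.99 of 74 in scrambled-oligo cells. At the ING4 exon they were 8.62 of 16 in SSE-mimetic cells, and 16.65 in scrambled-oligo cells, above the 11 inclusion reads found there. With these reads subtracted, a 2-isoform model gave differences of 0.443 for EZH2, 0.495 for SETD2 and 0.466 for BPTF, and these 3 were still called. For ING4 the subtraction left 0 inclusion reads in scrambled-oligo cells, so its difference of 0.547 under that model says nothing about the call. The part of unspliced RNA spread unevenly along an intron was not tested.

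For the 21 exons that were not tested, isoform-specific reads had a median of 4 in SSE-mimetic cells and 22 in scrambled-oligo cells, and 18 of them had at least 10 in scrambled-oligo cells. Their differences lay between -0.66, at the SMARCB1 form of 27 nt, and 0.28, at an ING4 exon of 48 nt with 0 inclusion reads in both groups.

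Other chromatin regulators were taken from a list of 7 families, in which 86 genes had 170 tested exons. Of these exons 4 were called higher and 0 lower, against 3.10% and 0.887% of all tested exons, and their median difference was -0.04. The SWI/SNF family had 3 called exons of 35 tested. SMARCA4, the ATPase BRG1, had a coding exon of 99 nt at 0.32 (0.14 to 0.57) in SSE-mimetic cells and 0.04 (0.01 to 0.10) in scrambled-oligo cells, with 5 inclusion and 5 skipping reads in SSE-mimetic cells against 2 inclusion and 26 skipping reads in scrambled-oligo cells. SS18 had an exon of 124 nt at 0.70 (0.43 to 0.92) in SSE-mimetic cells and 0.28 (0.20 to 0.37) in scrambled-oligo cells. BCL7B had an exon of 305 nt at 0.25 (0.16 to 0.35) in SSE-mimetic cells and 0.07 (0.05 to 0.10) in scrambled-oligo cells, with no skipping read in either group. The methyltransferase family gave 1 called exon of 35 tested, of 97 nt in SETD5, at 0.74 (0.48 to 0.94) in SSE-mimetic cells and 0.33 (0.22 to 0.46) in scrambled-oligo cells. In a 2-isoform model, scrambled-oligo reads were scaled by 0.2089, the ratio of isoform-specific reads between the groups over all exons. The differences were then 0.424 for SS18, 0.166 for BCL7B, 0.364 for SETD5 and 0.236 for SMARCA4, and the Bayes factors fell below 10. After intron subtraction the differences were 0.442 for SS18 and 0.406 for SETD5, both still called. For BCL7B and SMARCA4 the reads expected from introns in scrambled-oligo cells, 29.35 of 30 and 8.21 of 2 inclusion reads, left that subtraction uninformative. The exons of SS18, BCL7B and SETD5 are in no protein-coding transcript. The tested exons of PRC2 partners (8), acetyltransferase complexes (32), demethylases and deacetylases (36), NURF and related remodellers (20) and DNA methylation genes (4) gave 0 calls.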

How the data were processed

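RNA sequencing of MDA-LM2 cells (2 samples per group, 4 in all) was deposited as skipped-exon tables with the layout of MISO output, per the file headers. Reads were aligned with STAR 2.7 to hg38, per the submitters' processing notes. How the samples of a group were combined, and whether they were separate cultures, is not given in the sources used here. In these tables, the deposited Ψ is a fraction, the deposited Bayes factor a ratio, and the deposited difference (SSE mimetic minus scrambled) a signed score; reads per isoform class were deposited as text. Where events shared a skipped exon, the best covered event was kept, and 10 isoform-specific reads per group were required. A 2-isoform likelihood recomputed Ψ at a read length of 76 nt, picked from several lengths for the highest correlation with the deposited Ψ across tested exons. This r was 0.9968 for the SSE mimetic and 0.9989 for scrambled, and at 75 nt it was 0.9968 and 0.9988. Because the length was picked on this r, the r is no independent check of the likelihood. The likelihood was also tested on simulated reads, and that outcome is not reported here. Reading frames came from protein-coding transcripts with an ATG start that hold the upstream exon. Sequencing reads here carry no molecular identifiers and may repeat a molecule. Genes, lists and the naming rule were chosen with earlier results of these data known. Per gene, the rule names called exons, exons passing Fisher's exact test on reads, and the exons with the largest difference and the most reads; other exons were named after their values were seen. The sequence of 1 exon is not reported here. Python 3.11.15, pandas 2.3.3 and scipy 1.17.1 were used.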

Additional observations from a re-analysis of the deposited data

How the results depend on the processing

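The 4 exons called higher remained 4 with a minimum of 1 read, a difference of at least 0.2, the inclusion share in place of Ψ, every event kept, matching by the skipped exon alone, and the 2-isoform model on the deposited reads or after intron subtraction. They were 3, without ING4, with at least 20 reads, a Bayes factor of at least 100 or Fisher's exact test on reads. They were also 3, again without ING4, with scrambled reads scaled to the isoform-specific read total of the SSE mimetic group. The 1 exon called lower, in SMARCB1, became 0 with at least 20 reads, with Fisher's exact test, with the inclusion share (no skipping read in either group) and with scaled scrambled reads, and 2 after intron subtraction, where the 1021-nt form of the same exon was added. Intron subtraction removed every ING4 inclusion read in scrambled-oligo cells, so its call there is uninformative. For ING4 and SMARCB1 the differences with scaled reads were 0.356 and -0.434; the fewer scrambled reads widen the posterior. Over all tested exons the 2-isoform model with scaled reads called 109 higher and 31 lower. The same model on the deposited reads called 320 higher and 67 lower, and the authors' deposited values gave 255 and 73. No paired analysis was possible because each group was deposited as 1 pooled summary without the replicate numbers of the labels, and for the same reason no sample could be left out. Depth in the SSE mimetic group limited which exons were tested.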

Other observations

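The SSE mimetic summary held 1 further event of these genes that the scrambled summary lacked, a DNMT1 exon of 118 nt with a Ψ of 0.69 (0.25 to 0.96), resting on 1 inclusion read, 0 skipping reads and 1622 reads that matched neither form.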
